A study of Mus musculus with 9 samples.

Results

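The mitochondrial genome of the mouse carries 37 annotated genes: 13 that code for proteins, 2 for ribosomal RNAs and 22 for transfer RNAs. They were chosen by position alone, as every gene that GENCODE mouse release 21 places on chromosome M, out of 33293 gene rows in the table. Values for 15 of them, the 13 protein-coding genes and both rRNAs, were analysed, and the 22 tRNA genes are not analysed here. The 13 are called mRNAs below, which does not say that each has a transcript of its own. The values are FPKM, read fragments scaled to exon length and library depth, measured in whole aorta. The mice were males of 7 to 8 weeks kept on normal chow. The 5 WT libraries came from wild-type C57BL/6J mice and the 4 Apoe_KO libraries from Apoe-knockout mice. The sources used here give neither the background strain nor the allele of the knockout. The labels do not say that each library is a separate animal, so p-values measure only the spread between these samples, which may be technical. The question was whether transcripts of the mitochondrial genome differ between aortas with and without apolipoprotein E, the lipoprotein component that receptors bind to clear plasma lipid.

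Mitochondrial DNA is a small circle present in many copies per cell, and both of its strands are transcribed as long precursors. The tRNAs sit between most of the mRNAs and rRNAs, and cutting them out releases the other transcripts. All 13 mRNAs code for core subunits of the respiratory chain and of ATP synthase, which are completed with subunits encoded in the nucleus, and the rRNAs form the mitochondrial ribosome. The aortic media is built mainly of smooth muscle, and the fat around the vessel can include brown adipocytes, which are rich in mitochondria.

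Apoe was at 513 to 643 FPKM in the WT libraries and at 5.64 to 6.55 FPKM in the Apoe_KO libraries, so every library followed its label. The depths recovered from the values were 17.0 to 19.8 M reads or fragments per library. In every library the reads recovered over all annotated genes, 17530557 to 20378032, summed to more than its depth. The cause of this excess was not tested. The smooth muscle markers that define the vessel wall, Myh11 and Acta2 among a list of 7, summed to 4765 to 5661 FPKM in WT and 4876 to 6164 FPKM in Apoe_KO, and all 7 were detected in every library. In WT 2 and Apoe_KO 4 the 5 B cell markers summed to 379 and 375 FPKM, against 14.4 to 37.7 FPKM in the other 7 libraries.

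Parts of the nuclear genome repeat the mitochondrial sequence, and a read from such a stretch matches both places. The sources used here do not say how reads that match several places were counted. Of all windows of 100 bases in mt-Co2, 99.5% were found letter for letter in an annotated nuclear transcript. The shares were 99.5% for mt-Atp6, 99.9% for mt-Co3, 97.6% for mt-Nd3 and 98.5% for mt-Nd4l. Their copies are the pseudogenes Gm28661, Gm10925, Gm28437, Gm28438 and Gm10222, all on chromosome 1. Gm28438 differs from mt-Nd3 at 1 of 345 aligned bases. That base is T3C, counted from the first base of mt-Nd3, with the base of mt-Nd3 before the position and the base of Gm28438 after it. The first 100 bases of each are shown from the transcript sequences of GENCODE mouse release 21 (GRCm38), with the differing base in capitals, to show how little separates the pair. The mt-Nd3 stretch is chrM:9459-9558 on the plus strand and the Gm28438 stretch is chr1:24613020-24613119 on the minus strand.
mt-Nd3: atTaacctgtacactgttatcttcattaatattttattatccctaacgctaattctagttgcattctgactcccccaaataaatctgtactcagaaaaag
Gm28438: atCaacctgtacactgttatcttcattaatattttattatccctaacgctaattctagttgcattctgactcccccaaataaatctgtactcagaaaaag
The first 294 bases of mt-Nd4l are the same letters as those of Gm10222, with 0 mismatches. Their first 100 bases, at chrM:9877-9976 on the plus strand and chr1:24612601-24612700 on the minus strand, are shown because mt-Nd4l is the member with the widest spread between libraries.
mt-Nd4l and Gm10222: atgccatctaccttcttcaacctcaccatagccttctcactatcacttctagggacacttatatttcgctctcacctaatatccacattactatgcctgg
Other copies differ more. The closest annotated copy of mt-Cytb, Gm11410 on chromosome 4, matches it at 92.9% of 1142 aligned bases, and 0% of the 100-base windows of mt-Cytb were found in any annotated nuclear transcript. Bases 301 to 400 of each, chrM:14445-14544 and chr4:80004289-80004388, both on the plus strand, differ at the 10 bases in capitals.
mt-Cytb: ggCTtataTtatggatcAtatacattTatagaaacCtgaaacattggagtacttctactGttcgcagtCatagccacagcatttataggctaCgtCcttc
Gm11410: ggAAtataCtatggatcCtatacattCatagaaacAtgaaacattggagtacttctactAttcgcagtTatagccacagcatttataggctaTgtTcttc

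The levels of the 13 mRNAs fell into an upper and a lower range. The 7 higher ones had means over the 9 libraries of 24278 FPKM for mt-Co1, 13825 for mt-Cytb, 9467 for mt-Nd1, 7662 for mt-Nd2, 5029 for mt-Nd5, 4708 for mt-Nd6 and 4495 for mt-Nd4. The 6 lower ones had means of 236 FPKM for mt-Co2, 193 for mt-Atp6, 137 for mt-Nd4l, 131 for mt-Co3, 49.0 for mt-Nd3 and 45.4 for mt-Atp8. The ranges over libraries of mt-Nd5, mt-Nd6 and mt-Nd4 overlapped, as did those of mt-Co2, mt-Atp6, mt-Nd4l and mt-Co3, and those of mt-Nd3 and mt-Atp8. The order mt-Co1, mt-Cytb, mt-Nd1, mt-Nd2 held in each of the 9 libraries. The rRNAs lay between these ranges, at means of 1265 FPKM for mt-Rnr2 and 871 FPKM for mt-Rnr1, in libraries whose protocol describes removal of rRNA.

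The 5 mRNAs that share 97.6% to 99.9% of their windows with a nuclear transcript took values from 37.6 to 549 FPKM. The 5 mRNAs mt-Nd1, mt-Nd2, mt-Nd5, mt-Nd6 and mt-Cytb, which share 0% to 3.19%, took values from 3272 to 18622 FPKM. In mt-Co1 30.8% of windows were shared and in mt-Nd4 60.8%, and these had values from 3542 to 33724 FPKM. The exception was mt-Atp8, which was low and shared 0% of its windows. It lies on chromosome M between mt-Co2 and mt-Atp6, whose copies Gm28661 and Gm10925 are neighbours on chromosome 1, and the stretch between those copies, which holds no annotated transcript, was not searched. The part of the shared sequence in the levels of the lower mRNAs was not tested.

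**Figure D1:**
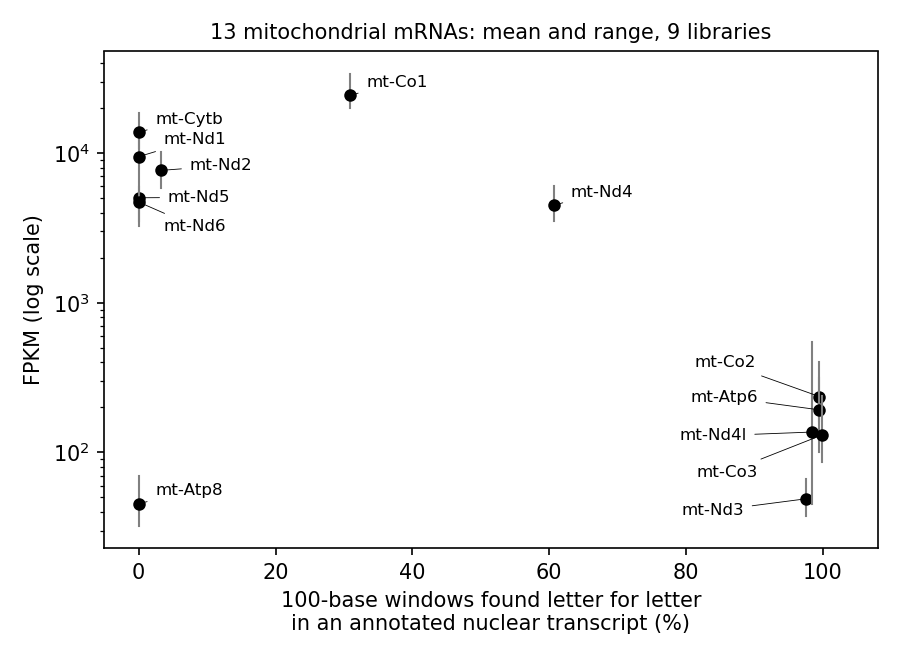
Mean FPKM over 9 libraries (points, log axis) and range (lines) of the 13 mitochondrial mRNAs, against the percent of their 100-base windows found letter for letter in an annotated nuclear transcript. The 5 mRNAs at 97.6% to 99.9% lie below 549 FPKM, and mt-Atp8 is the only mRNA near 0% that is also low.

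The pseudogenes themselves carried values. Gm28661 had a mean of 133 FPKM beside 236 FPKM for mt-Co2, and Gm10925 a mean of 204 FPKM beside 193 FPKM for mt-Atp6. Together mt-Atp6 and Gm10925 came to 396 FPKM, below the means of the 7 higher mRNAs. How reads that match both were counted is not known, so this sum does not give the level of mt-Atp6. Gm28439, identical to the first 876 bases of mt-Nd4, had a mean of 73.7 FPKM, and mt-Nd4 was 50.05 to 70.7 times as high in the 9 libraries. Gm29216 and Gm13340, copies of parts or all of mt-Co1, had means of 63.2 and 19.2 FPKM, and Gm13339, a copy of part of mt-Nd2, had 1.36 FPKM. Means of the others were 76.4 FPKM for Gm28437, 56.2 for Gm10222 and 16.5 for Gm28438. Of 10 listed copies, 9 were tested between the groups and 0 passed. Their median log2 fold change, Apoe_KO over WT, was -0.30, and the smallest limma adjusted p, for Gm28438, was 0.122.

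None of the 15 members passed the test between Apoe_KO and WT (limma on log2(FPKM + 1), adjusted p under 0.05), nor did any at an unadjusted p under 0.05 or by limma voom on the recovered reads. Of all 13383 genes tested, 7.35% passed, 3.92% lower and 3.43% higher in Apoe_KO. The FPKM of the groups overlapped for all 15 members, whereas 12.4% of all tested genes had groups that did not overlap. The log2 fold change was below 0 for 11 of 15 members, with a median of -0.11, beside a median of -0.069 and 63.9% below 0 over all tested genes. Without Apoe_KO 1 only 6 of 15 were below 0 and the median was 0.0097, and without Apoe_KO 2 the median was -0.25. With each library centred on its median 9 of 15 members and 50.2% of all tested genes were below 0. With quantile normalization 7 of 15 were below 0 and mt-Co1, mt-Cytb, mt-Nd1 and mt-Nd2 were at exactly 0, because that method gives genes of the same rank the same value in every library. These tests do not show that the levels are equal, since the standard errors of the 13 mRNAs ran from 0.15 to 0.61 on the log2 scale.

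**Figure D2:**
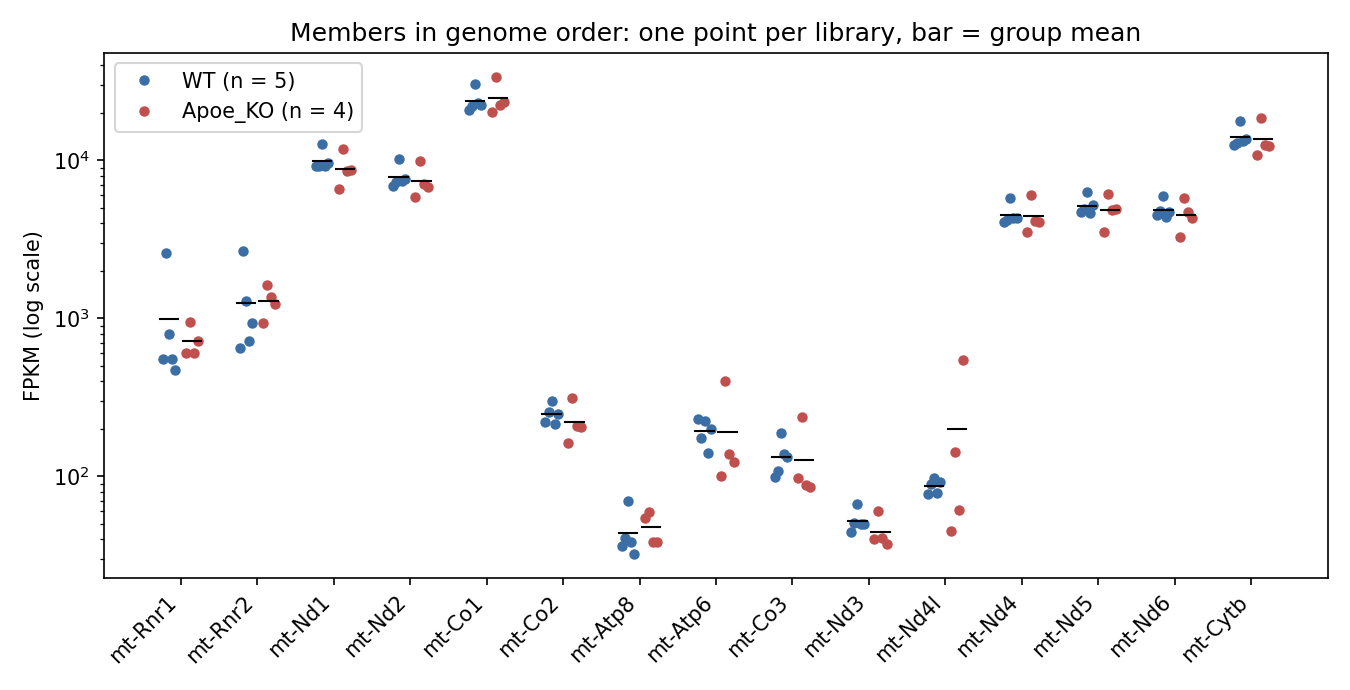
FPKM (log axis) of the 15 members in genome order, 1 point per library, with group means as bars. WT (5 libraries) and Apoe_KO (4 libraries) overlap at every member, and the rRNAs of WT 2 and mt-Nd4l of Apoe_KO 4 stand apart.

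Complex I, which takes electrons from NADH, has 7 mitochondrially encoded subunits. Its mRNA mt-Nd1 was at 9141, 9152, 12664, 9148 and 9648 FPKM in WT 1 to WT 5 and at 6546, 11721, 8500 and 8684 FPKM in Apoe_KO 1 to Apoe_KO 4. In Apoe_KO, 3 of 4 values lay below every WT value, and Apoe_KO 2 lay above 4 of them. Its log2 fold change was -0.19 (SE 0.17, limma adjusted p 0.553), and it was -0.050 without Apoe_KO 1 and -0.33 without Apoe_KO 2. The mt-Nd2 mRNA had group means of 7869 ± 1329 FPKM in WT and 7403 ± 1773 in Apoe_KO (SD, n = 5 and n = 4), as for the means that follow. Those of mt-Nd4 were 4534 ± 695 and 4446 ± 1099 FPKM, and those of mt-Nd5 were 5170 ± 696 and 4853 ± 1088 FPKM.

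The mt-Nd6 mRNA is the only one encoded on the other strand. It was at 4519, 4798, 5930, 4395 and 4716 FPKM in WT 1 to WT 5 and at 3272, 5760, 4694 and 4288 FPKM in Apoe_KO 1 to Apoe_KO 4. WT 3 and Apoe_KO 2 were the 2 highest libraries and Apoe_KO 1 the lowest. The log2 fold change was -0.13 (SE 0.16, limma adjusted p 0.653). Its annotation overlaps that of mt-Nd5 by 14 bases on opposite strands, and whether counting used strand is not given, so reads from the 2 strands cannot be told apart.

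The mt-Nd3 mRNA was at 44.5, 50.5, 67.0, 50.3 and 50.3 FPKM in WT 1 to WT 5 and at 40.0, 60.1, 41.0 and 37.6 FPKM in Apoe_KO 1 to Apoe_KO 4. All WT libraries lay above 3 of the 4 Apoe_KO libraries. At -0.24 (SE 0.15) its log2 fold change had the smallest p of the members, with a limma adjusted p of 0.361. The sequence pair printed above is the copy Gm28438, whose log2 fold change was -0.43 (SE 0.16, limma adjusted p 0.122).

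The mt-Nd4l mRNA had the largest log2 fold change of any member, 0.49, with the largest SE, 0.61 (limma adjusted p 0.665). It was at 77.2, 89.3, 98.3, 78.0 and 91.9 FPKM in WT 1 to WT 5 and at 45.2, 142, 61.5 and 549 FPKM in Apoe_KO 1 to Apoe_KO 4. Apoe_KO 4 stood alone, with 2993 recovered reads against 262 to 781 in the other 8 libraries. Without that library the log2 fold change was -0.23. The value is not shared by its neighbours: in Apoe_KO 4, mt-Nd3 was the lowest of all 9 libraries and mt-Nd4, whose annotation overlaps that of mt-Nd4l by 7 bases, was at 4070 FPKM, inside the range of the others. The identical copy Gm10222 was at 38.2 FPKM there, so that mt-Nd4l was 14.4 times its copy, against 1.21 to 2.07 times in the other libraries. WT 2, the other library with high B cell markers, had 89.3 FPKM. The cause of the value in Apoe_KO 4 was not tested.

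Complex III passes electrons from ubiquinol to cytochrome c, and its only mitochondrial subunit is cytochrome b. The mt-Cytb mRNA had group means of 14021 ± 2128 FPKM in WT and 13580 ± 3449 FPKM in Apoe_KO. This gave -0.066 on the log2 scale (SE 0.17, limma adjusted p 0.848).

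Complex IV, cytochrome c oxidase, has mitochondrial subunits from mt-Co1, mt-Co2 and mt-Co3. The most abundant member was mt-Co1, at 20956, 22001, 30374, 23064 and 22474 FPKM in WT 1 to WT 5 and at 20095, 33724, 22399 and 23415 FPKM in Apoe_KO 1 to Apoe_KO 4. It alone made up 6.87% to 10.1% of the summed FPKM of a library. Its log2 fold change was 0.052 (SE 0.17, limma adjusted p 0.884), and without Apoe_KO 2 it was -0.10. The mt-Co2 mRNA was at 220, 256, 300, 214 and 249 FPKM in WT 1 to WT 5 and at 162, 314, 208 and 204 FPKM in Apoe_KO 1 to Apoe_KO 4. Of the Apoe_KO libraries 3 were below all WT libraries and Apoe_KO 2 was above them all, with a log2 fold change of -0.19 (SE 0.18, limma adjusted p 0.550). The mt-Co3 mRNA ranged from 98.4 to 189 FPKM in WT and from 86.0 to 237 FPKM in Apoe_KO.

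Complex V, the ATP synthase, takes 2 subunits from the mitochondrial genome, whose reading frames overlap. The overlap of 43 bases is shown in capitals with 20 bases on either side (chrM:7907-7989, plus strand, GRCm38), because reads inside it belong to both genes.
mt-Atp8 to mt-Atp6: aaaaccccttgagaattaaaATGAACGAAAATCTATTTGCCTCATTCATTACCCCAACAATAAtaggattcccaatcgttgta
The mt-Atp6 mRNA was at 231, 175, 223, 140 and 200 FPKM in WT 1 to WT 5 and at 101, 401, 139 and 124 FPKM in Apoe_KO 1 to Apoe_KO 4. The lowest WT library lay above 3 of the 4 Apoe_KO libraries, and Apoe_KO 2 was the highest of all 9. Its log2 fold change was -0.23 (SE 0.36, limma adjusted p 0.737). Without Apoe_KO 2 it was -0.66 (SE 0.17) and passed, with a limma adjusted p of 0.0482; it was the only member to pass under any alternative tried. The mt-Atp8 mRNA ranged from 32.4 to 70.0 FPKM in WT and from 38.3 to 59.4 FPKM in Apoe_KO, on 123 to 269 recovered reads.

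The small-subunit rRNA mt-Rnr1 was at 555, 2598, 796, 549 and 471 FPKM in WT 1 to WT 5 and at 600, 942, 604 and 723 FPKM in Apoe_KO 1 to Apoe_KO 4. The large-subunit rRNA mt-Rnr2 was at 646, 2653, 1283, 714 and 933 FPKM in WT 1 to WT 5 and at 933, 1619, 1371 and 1235 FPKM in Apoe_KO 1 to Apoe_KO 4. WT 2 was the highest library for both, and the other libraries of the 2 groups overlapped. The log2 fold change of mt-Rnr1 was -0.15 (SE 0.46, limma adjusted p 0.866) and turned to 0.28 without WT 2. That of mt-Rnr2 was 0.23 (SE 0.39, limma adjusted p 0.756), and it was 0.55 without WT 2 and 0.043 without WT 1. Per 100 FPKM of mitochondrial mRNA, WT 2 had 7.95 FPKM of rRNA, against 1.89 to 2.31 in the other WT libraries and 2.75 to 3.05 in Apoe_KO.

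Other non-coding RNAs were also high in WT 2, and these were looked up after the rRNA values were seen. Rn7sk, a small nuclear RNA that regulates transcription elongation, was at 455 FPKM in WT 2 and at 0.481 to 6.42 FPKM in the other 8 libraries. Gm26917 was at 75.1 FPKM against 3.99 to 9.71, and the rRNA gene CT010467.1 was at 516 FPKM against 73.2 to 264. The part of library preparation in the rRNA levels was not tested.

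**Figure D3:**
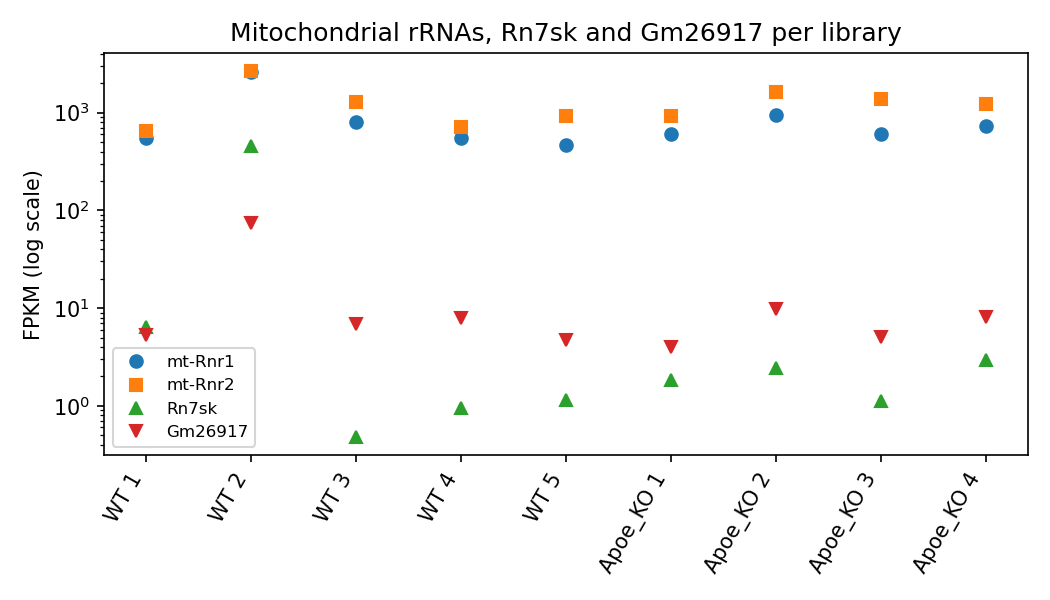
FPKM (log axis) of the mitochondrial rRNAs and of the nuclear RNAs Rn7sk and Gm26917 in each library, 1 point per gene and library. All 4 are highest in WT 2, Rn7sk at 455 FPKM against at most 6.42 FPKM elsewhere.

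The mitochondrial genome held a large part of summed FPKM, a measure scaled to gene length and not a share of the RNA itself. Its 15 members held 21.4%, 22.3%, 28.2%, 21.96% and 22.7% of summed FPKM in WT 1 to WT 5 and 19.2%, 28.7%, 22.2% and 21.5% in Apoe_KO 1 to Apoe_KO 4. WT 3 and Apoe_KO 2 were high and nearly the same, and the other 7 libraries lay between 19.2% and 22.7%. The group means were 23.3 ± 2.79% (SD, n = 5) and 22.9 ± 4.08% (SD, n = 4), a difference of -0.38 percentage points, smaller than either SD. As a share of recovered reads, which does not divide by gene length, the members held 7.87% to 11.3% in WT and 6.88% to 11.8% in Apoe_KO, or 1387070 to 2259390 reads per library. In bulk tissue, fewer cells of a mitochondria-rich type and less mitochondrial RNA per cell cannot be told apart.

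**Figure D4:**
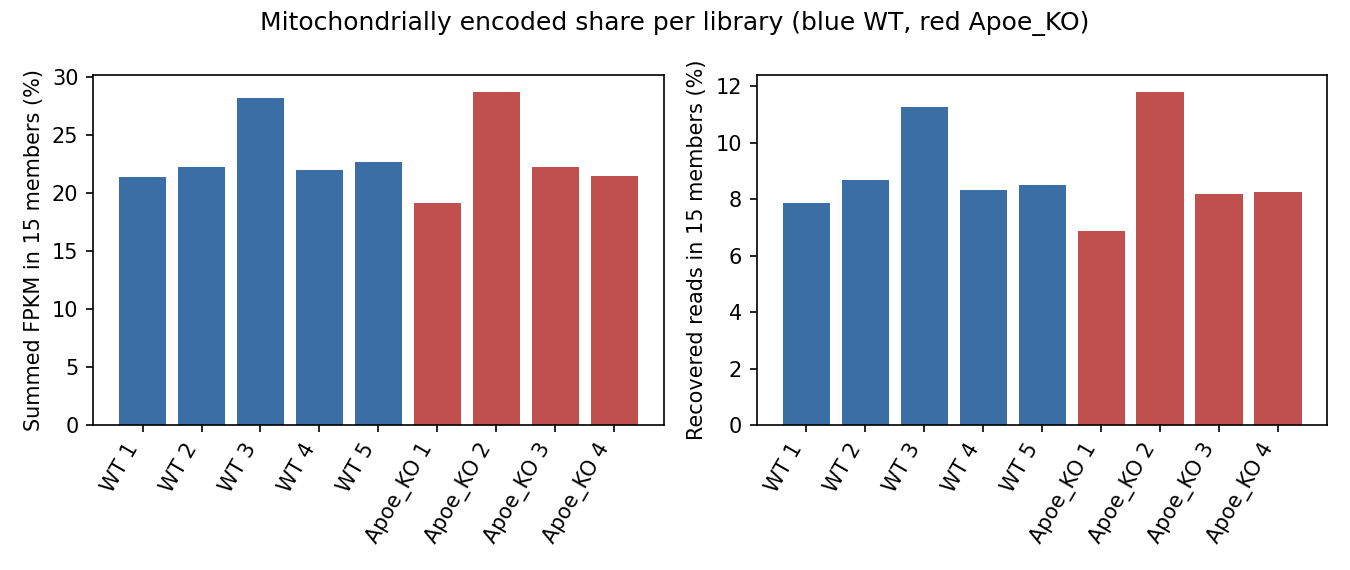
Percent of summed FPKM (left) and of recovered reads (right) in the 15 mitochondrial members, 1 bar per library. WT 3 at 28.2% and Apoe_KO 2 at 28.7% of FPKM exceed the other 7 libraries, which lie between 19.2% and 22.7%.

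Most members were high, and low, in the same libraries as this share. WT 3 and Apoe_KO 2 were the 2 highest libraries for 11 of the 13 mRNAs, and Apoe_KO 1 was the lowest for 10 of 13. The nuclear-encoded subunits of the same complexes were also highest there. The 36 complex I subunits summed to 1865 FPKM in WT 3 and 1950 FPKM in Apoe_KO 2, against 1295 to 1689 FPKM in the other 7. The 7 brown adipocyte markers summed to 1075 FPKM in WT 3 and 1095 FPKM in Apoe_KO 2, within ranges of 522 to 1075 FPKM in WT and 440 to 1095 FPKM in Apoe_KO, and all 7 were detected in every library. Ucp1, the uncoupling protein that defines brown adipocytes, was at 184, 226, 456, 247 and 338 FPKM in WT 1 to WT 5 and at 174, 459, 147 and 215 FPKM in Apoe_KO 1 to Apoe_KO 4. The 8 cardiac muscle markers summed to 83.1 FPKM in WT 3 and 93.4 FPKM in Apoe_KO 2, within 24.6 to 83.1 FPKM in WT and 12.8 to 93.4 FPKM in Apoe_KO, and Nppa was at 0 in WT 4 and Apoe_KO 4. The 6 skeletal muscle markers summed to 43.1 FPKM in WT 3, where the range in WT was 3.28 to 43.1 FPKM, and to 3.60 to 9.79 FPKM in Apoe_KO. The part of these cell types in the mitochondrial share was not tested. Without WT 3 and Apoe_KO 2 the group means were 22.1% and 20.97%.

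The nuclear genes whose levels followed the mean of the 13 mRNAs most closely were ranked by Pearson correlation over the 9 libraries, on the log2(FPKM + 1) scale, as a description. The pseudogenes Gm28439 (r = 0.93) and Gm28661 (0.88) were among the first 10, and these share sequence with members. The list also holds 3 genes of mitochondrial complexes: Mrpl32 (0.92), of the mitochondrial ribosome, Atp5h (0.91), of ATP synthase, and Uqcrh (0.89), of complex III. The others were Nnat (0.92), Hoxa2 (0.91), Gpihbp1 (0.90), Ucp1 (0.89) and Prdx5 (0.88). All 9 points share the library and its depth with the members, and WT 3 and Apoe_KO 2 lie at the high end.

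The make-up of the pool of mitochondrial mRNA was described by the share of each mRNA, without a test. The share of mt-Co1 in the summed FPKM of the 13 mRNAs was 33.0%, 33.3%, 33.8%, 34.5% and 32.9% in WT 1 to WT 5 and 37.1%, 36.2%, 34.6% and 35.8% in Apoe_KO 1 to Apoe_KO 4. The share of mt-Nd1 was 14.4%, 13.9%, 14.1%, 13.7% and 14.1% in WT and 12.1%, 12.6%, 13.1% and 13.3% in Apoe_KO. For both the groups did not overlap, mt-Co1 higher and mt-Nd1 lower in every Apoe_KO library than in any WT library. Such a lack of overlap was seen for 2 of 13 mRNAs. For mt-Co1 the gap was narrow, from 34.5% in WT 4 to 34.6% in Apoe_KO 3. Of all tested genes, 12.4% had groups that did not overlap in FPKM, and 2.35% when divided by the same sum. The division takes the spread of the sum between libraries out of the members and adds it to other genes. The 2.35% is therefore not a like measure for the members. The pair was singled out after the values were seen and has no test. Shares of 1 sum also depend on each other.

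The ratio of mt-Nd1 to mt-Co1 ran from 0.397 to 0.436 in WT and from 0.326 to 0.379 in Apoe_KO, with means of 0.419 ± 0.0151 (SD, n = 5) and 0.356 ± 0.0242 (SD, n = 4). This ratio could not overlap, because the shares of both genes already separated in opposite directions, so it is no further result. Set against mt-Cytb, the ratio of mt-Co1 ran from 1.66 to 1.73 in WT and from 1.79 to 1.90 in Apoe_KO, again without overlap. The ratio of mt-Nd1 to mt-Cytb ran from 0.687 to 0.729 in WT and from 0.606 to 0.703 in Apoe_KO, which overlapped. In WT 2, the library high in rRNA, these ratios were 0.416, 1.70 and 0.708, in the order given. Of the 100-base windows of mt-Co1, 30.8% were found in a nuclear transcript, against 0% for mt-Nd1 and for mt-Cytb. The parts of library preparation and of the counting of reads that match nuclear copies were not tested for the ratios.

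**Figure D5:**
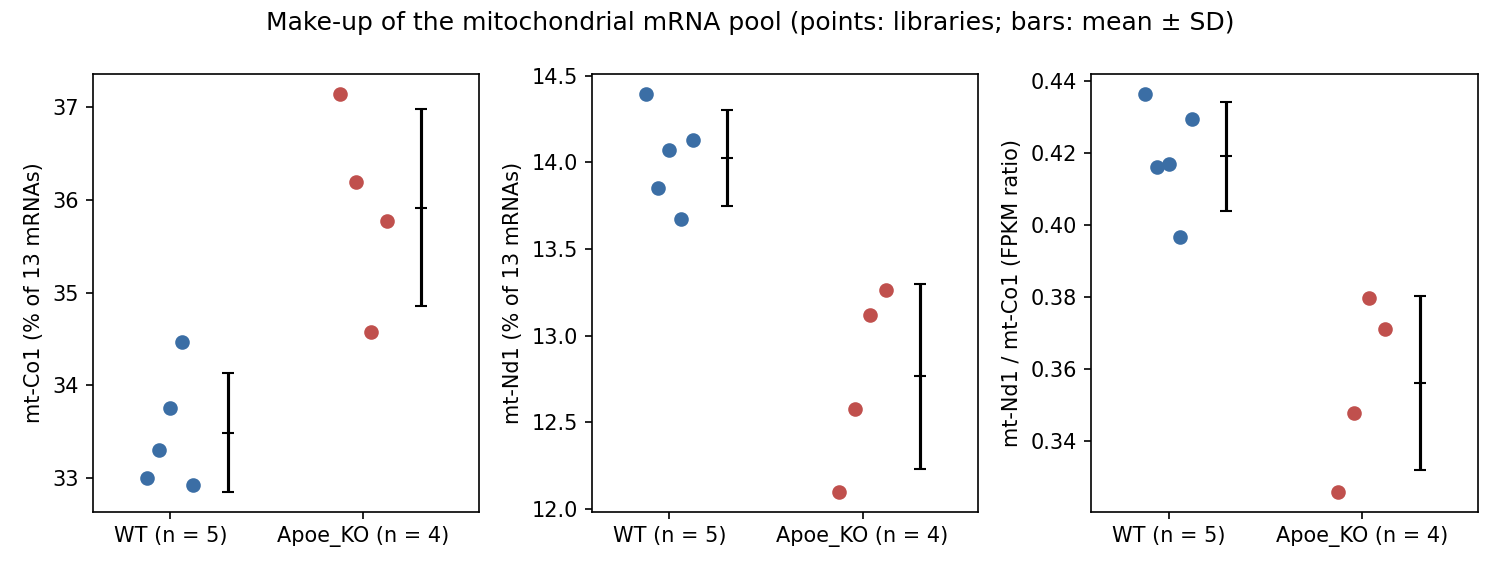
Share of mt-Co1 and of mt-Nd1 in the summed FPKM of the 13 mitochondrial mRNAs (%), and their ratio, with 1 point per library and mean ± SD beside it (WT n = 5, Apoe_KO n = 4); the axes do not start at 0. WT and Apoe_KO libraries do not overlap in any of the 3 panels, and the ratio lies at 0.397 to 0.436 in WT and 0.326 to 0.379 in Apoe_KO. The lack of overlap in the ratio follows from that in the shares.

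The genes that copy, express and complete the mitochondrial genome are encoded in the nucleus. Of 264 tested genes in 15 lists of such functions, 7 were called lower and 0 higher in Apoe_KO (2.65%), below the 7.35% of all tested genes. The log2 fold change was below 0 for 238 of the 264, with a median of -0.13, against 63.9% below 0 and a median of -0.069 over all tested genes. With median centring 191 of 264 were below 0, beside 50.2% of all tested genes, and 2 were called. Over all genes, centring moved the calls from 459 higher and 524 lower to 630 higher and 269 lower, and quantile normalization gave 485 higher and 240 lower. The number called was 21 without Apoe_KO 2, 3 without WT 4 and without Apoe_KO 3, and 4 without WT 1, WT 3, Apoe_KO 1 or Apoe_KO 4, all lower each time. In some lists of cell type markers 1 or 2 genes were called, in lists of 5 to 7 genes, while 7.35% of all tested genes passed. All 6 white adipocyte markers had log2 fold changes below 0 (median -0.46), and Lep and Plin1 were called lower (-1.74 and -0.56; limma adjusted p 0.0276 and 0.0466). Their sums ran from 1473 to 2275 FPKM in WT and from 1091 to 1896 FPKM in Apoe_KO, with every marker detected in every library. All 5 endothelial markers were below 0 and Kdr was called lower (-0.58, limma adjusted p 0.0184), in sums of 171 to 298 FPKM in WT and 157 to 272 FPKM in Apoe_KO. All 5 erythroid markers were below 0 and 0 were called. Of the 5 macrophage markers only Lyve1 was called, higher (0.81, limma adjusted p 0.0196). Of the 7 smooth muscle markers only Des was called, also higher (0.39, limma adjusted p 0.0246), and 1 was below 0. The 5 fibroblast markers went both ways, 3 below 0 and 0 called, with Col1a1 at -0.64 and Pi16 at 0.34. The part of these cell types in the levels of the nuclear genes was not tested.

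The mitochondrial ribosome had 5 of 82 tested genes called, all lower (6.1%), and a median log2 fold change of -0.16. Over all tested genes 7.35% were called, 3.92% lower, so the count is near that share. Mrps12, which encodes a protein of its small subunit, fell from 12.9 ± 0.88 to 6.58 ± 1.24 FPKM (SD, n = 5 and n = 4; log2 fold change -0.88, SE 0.11, limma adjusted p 0.0018). Its values were 12.6, 14.4, 12.1, 12.4 and 12.8 FPKM in WT 1 to WT 5 and 7.14, 5.65, 5.46 and 8.07 FPKM in Apoe_KO 1 to Apoe_KO 4. The groups were far apart, and it was called under 20 of 20 alternatives. Mrps12 lies at chr7:28739641-28741820 (GRCm38), on the chromosome that also carries Apoe. Mrpl18 fell from 21.4 ± 0.79 to 16.7 ± 0.69 FPKM (SD; log2 fold change -0.34, SE 0.054, limma adjusted p 0.0073) and was called under 18 of 20 alternatives, but overlaps Tcp1 on the other strand. Mrpl41 (20.7 to 15.6 FPKM) was called under 7 alternatives and its groups overlapped. Mrps5 (5.71 to 4.62 FPKM) was called under 5 of the 19 alternatives that tested it. The fifth call was Mrpl40 (12.9 to 10.4 FPKM), called under 4 alternatives, overlapping Gm28539 on the other strand and named here because it completes the count.

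In transcription of mitochondrial DNA, 1 of 9 genes was called, a list too short to set against the 7.35% of all tested genes. Mterf2, of the mitochondrial transcription termination factor family, fell from 3.59 ± 0.53 to 1.81 ± 0.33 FPKM (SD, n = 5 and n = 4; log2 fold change -0.71, SE 0.11, limma adjusted p 0.0076). It was called under 18 of the 19 alternatives that tested it and overlaps Tmem263 on the other strand. Tfam, which packages mitochondrial DNA and starts its transcription, was named outside the rule for its role; it was at 6.60 ± 0.19 and 5.98 ± 1.01 FPKM (limma adjusted p 0.403). In the decay of mitochondrial RNA, 1 of 5 genes was called, again in a list too short for that comparison. Lactb2, an endoribonuclease, fell from 12.6 ± 1.53 to 9.01 ± 0.73 FPKM (SD, n = 5 and n = 4). Its log2 fold change was -0.44 (SE 0.094, limma adjusted p 0.024), and it overlaps Gm38319 on the same strand. It was called under 12 of 20 alternatives, and not without WT 1, WT 4 or Apoe_KO 3, with no filter or with median centring, among others.

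In the other lists of mitochondrial gene expression and biogenesis, 0 genes were called. Among 17 genes of RNA processing and stability the smallest p-values were for Fastk (13.2 and 11.3 FPKM in WT and Apoe_KO, limma adjusted p 0.120) and Fastkd5 (1.43 and 1.02 FPKM, 0.158), of the FAST kinase family. Among 13 translation factors they were for Guf1 (3.57 and 2.83 FPKM, 0.0854) and Tsfm (4.84 and 3.83 FPKM, 0.0951), and all 13 had log2 fold changes below 0. Among 17 mitochondrial tRNA synthetases they were for Sars2 (2.24 and 1.66 FPKM, 0.0884) and Rars2 (6.49 and 4.80 FPKM, 0.107). For enzymes that modify tRNA they were Trmt5 and Gtpbp3 (limma adjusted p 0.0711 and 0.117), and for those that modify rRNA Mrm2 and Mrm3 (0.0780 and 0.268). In DNA replication they were Primpol and Ssbp1 (0.0961 and 0.151), and among regulators of mitochondrial biogenesis Esrra was at 16.4 and 13.4 FPKM (0.173).

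The nuclear subunits of the respiratory complexes, including complex II, which is wholly encoded in the nucleus, were compared between the groups. Of 80 tested subunits of complexes I to V, 0 were called, and 3 had an unadjusted p under 0.05. The lack of calls does not show that their levels are equal. The log2 fold change was below 0 for 78 of 80, against 63.9% of all tested genes, with a median of -0.11. With median centring 57 of 80 were below 0, and without Apoe_KO 3 it was 50 of 80. Leaving out Apoe_KO 2 gave 7 called, and leaving out WT 3 and Apoe_KO 2 together gave 2. The smallest p-values were for Ndufb7 and Ndufv3 in complex I (limma adjusted p 0.135 and 0.294), Sdhc and Sdhd in complex II (0.475 and 0.643), Uqcr11 and Uqcrfs1 in complex III (0.219 and 0.446), Cox5a and Cox7b in complex IV (0.420 and 0.489), and Atp5j and Atpif1 in complex V (0.174 and 0.182).

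Genes of the outer membrane and matrix, a separate list of 16 that is not counted among the 15 lists, encode proteins that are not part of the respiratory chain. Hspe1, the matrix co-chaperonin, rose from 48.1 ± 6.31 to 66.6 ± 8.76 FPKM (SD, n = 5 and n = 4; log2 fold change 0.46, SE 0.12, limma adjusted p 0.0477). Its partner Hspd1, which overlaps it on the opposite strand, was at 117 and 152 FPKM and did not pass (limma adjusted p 0.0919). Of the 16, 11 had log2 fold changes below 0, with a median of -0.096.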

How the data were processed

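Aorta RNA of 9 libraries (5 WT, 4 Apoe_KO) was sequenced. The labels' protocol describes rRNA depletion, while the molecule field of the labels names polyA RNA. The submitters' processing notes name GRCm38 and limma. Not given in the sources used here are the aligner, annotation, strandedness and counting. In the 1 table the authors deposited, values were taken to be FPKM, since its header names no unit. Whole reads were recovered as FPKM times exonic length (GENCODE mouse release 21) times depth. Of values worth up to 50 reads, 97.6% to 97.9% came out whole within 0.1 read, and limma voom on these reads called 1024 genes. Of 33293 rows, 33201 were in the annotation.

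Genes at 1 FPKM or more in at least 4 libraries (13383) were tested with limma 3.58.1 (R 4.3.3; trend, robust) on log2(FPKM + 1), genotype as the only term, with Benjamini-Hochberg adjustment at 0.05. Such fold changes understate those of low genes. All members were tested because all passed the filter. Nuclear copies were searched with BLAST+ 2.17.0 and by shared windows against annotated transcripts. The steps were tested on simulated data.

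All 15 members are named, as are up to 4 called genes per nuclear list or else the 2 of smallest p (1 for biogenesis regulators, of which the other is not reported here), nuclear copies above 1 FPKM, and the 10 nuclear genes most like the mRNAs. Members and lists were chosen with earlier results of these data known. Mrpl53 and Mrpl56 are not analysed here.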

Additional observations from a re-analysis of the deposited data

Results flagged for a closer look

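In 82 sets of values of 1 group (the FPKM of each member and nuclear copy, shares and ratios), the highest or lowest library was set against the others by Dixon's gap test at 95%. The gap was beyond the limit in 19 sets, where chance gives about 1 in 20 for a single set. The sets are not independent, since the members vary together over the same 9 libraries. The 19 of 82 therefore cannot be set against that rate.

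WT 3 lay far above the other WT libraries for mt-Nd1 (12664 FPKM), mt-Nd2 (10206), mt-Co1 (30374), mt-Atp8 (70.0), mt-Nd3 (67.0), mt-Nd4 (5765), mt-Nd6 (5930), mt-Cytb (17764) and the copy Gm28439 (115 FPKM). Its members held 28.2% of FPKM. Apoe_KO 2 lay far above its group for mt-Atp6 (401 FPKM, and 0.430% of mRNA FPKM), mt-Co3 (237 FPKM), mt-Nd3 (60.1 FPKM) and Gm28439 (102 FPKM). The sum of the brown adipocyte markers was highest in these same 2 libraries, and the part of these cells was not tested. Among these markers, Elovl3 was higher in WT 4 and WT 5 (7.45 and 8.45 FPKM) than in WT 3 (6.18 FPKM).

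WT 2 stood apart for mt-Rnr1 (2598 FPKM) and for rRNA per 100 FPKM of mRNA (7.95). Apoe_KO 4 stood apart for mt-Nd4l (0.839% of mRNA FPKM), and Apoe_KO 1 for mt-Atp8 (0.101% of mRNA FPKM).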

How the results depend on the processing

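No member was called under 19 of 20 alternatives, and 1 without Apoe_KO 2, so that the range over single libraries left out was 0 to 1. The nuclear genes called, 7, became 1 with the replicate block, 2 with median centring, 4 with quantile normalization, 3 with no filter, 18 with library weights, 3 without WT 2 and Apoe_KO 4, and 3 to 21 with single libraries left out; all were lower, and the cause was not tested. The share difference ran from -2.32 to 0.86 percentage points, each within 1 SD of the main value.

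Of 300 alternative log2 fold changes of members 277 kept direction and side of the threshold, 4 were exactly 0 (mt-Co1, mt-Cytb, mt-Nd1 and mt-Nd2 with quantile normalization, by its construction), 1 passed and 18 reversed. Reversed were mt-Rnr1 (0.26 without WT 2 and Apoe_KO 4; -0.34 to 0.28 with single libraries left out, highest without WT 2), mt-Nd4l (-0.22 without WT 2 and Apoe_KO 4, -0.023 with library weights, -0.23 to 0.96 with single libraries left out, lowest without Apoe_KO 4), mt-Co1 (-0.10 to 0.15 with single libraries left out, lowest without Apoe_KO 2, -0.012 without WT 3 and Apoe_KO 2, -0.0055 with library weights), mt-Nd4 (0.022 with median centring, 0.031 with quantile normalization, 0.043 without WT 3) and mt-Cytb (0.0023 with median centring, 0.023 without WT 3). With single libraries left out, the lowest values, all without Apoe_KO 2, were -0.25 for mt-Nd2, -0.20 for mt-Nd4, -0.23 for mt-Nd5 and for mt-Cytb, and -0.26 for mt-Nd6. Without Apoe_KO 1, mt-Nd2 (0.0022), mt-Nd4 (0.053), mt-Nd5 (0.038), mt-Nd6 (0.0097) and mt-Cytb (0.034) reversed. None of these 18 passed.

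Libraries of the same number in both groups did not pair: their deviations correlated at 0.26, -0.27, -0.13 and -0.22, and 1 of 4 Apoe_KO libraries correlated best with its own number. With the replicate block 183 of all genes were called instead of 983, Mrps12 the only one of the nuclear lists, and 0 members. Counts over all genes also moved with no filter (445), a filter of 10 FPKM (582) and library weights (1757), and ran from 383 to 1259 with 1 library left out. Leaving out WT 3 and Apoe_KO 2 together was chosen after seeing the data. The share without the tRNA genes was not run apart, since no tRNA value entered. With single libraries left out, mt-Atp6 ran from -0.66 to -0.0011, mt-Co2 from -0.37 to -0.054, mt-Co3 from -0.52 to -0.035, mt-Nd3 from -0.39 to -0.15 and mt-Atp8 from 0.044 to 0.34. Depth limits mt-Atp8 and mt-Nd3 most, at 123 to 439 reads per library.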
